A study of Mus musculus with 6 samples.

Results

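The peroxiredoxins and the redox defence genes that work with them were followed in regulatory T cells (Treg) that carry CD4 and CD25 and hold immune responses in check, taken from HDAC6 knockout and wild-type mice. Of 10 listed genes, Prdx1 to Prdx6, Txn1, Txnrd1, Hmox1 and Gclm, 7 had at least 1 probe set whose platform annotation named that gene alone, and these 13 probe sets are all described, out of 22626 tested on the array. Every probe set of Prdx1 also named the pseudogene Gm21399, so it has no value of its own, and Prdx5 and Prdx6 were not analysed here. The listed genes were picked because peroxiredoxins 1 and 2 are protein substrates of HDAC6, a mostly cytoplasmic deacetylase, and the rule used no measured value.

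The HDAC6 knockout group had 3 arrays, and its labels gave no strain. The wild-type group had 3 arrays and the strain label C57BL6. Both groups were magnetically separated CD4+CD25+ cells, described as independent samples, with no treatment given. The sources used here give neither the number of animals behind a sample nor their age nor the design of the knockout allele, so p-values measure the spread between these samples, which may be partly technical. Values are log2 units after RMA (robust multi-array averaging), differences are knockout minus wild type, and a difference passed when limma's Benjamini-Hochberg adjusted p over all probe sets was under 0.05. In a bulk sample, fewer cells of a type and less RNA per cell cannot be told apart.

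Peroxiredoxins reduce hydrogen peroxide through a reactive cysteine, and in doing so that cysteine is oxidised. Thioredoxin (Txn1) reduces the typical peroxiredoxins again and is itself reduced by thioredoxin reductase (Txnrd1), a selenoenzyme that takes its electrons from NADPH. Glutathione, the other main thiol buffer, depends on glutamate-cysteine ligase, of which Gclm is the modifier subunit. Heme oxygenase 1 (Hmox1) degrades heme. The transcription factor NRF2 induces Prdx1, Txnrd1, Gclm and Hmox1 under oxidative stress, through antioxidant response elements, and human Treg have been described as resistant to oxidative stress. The arrays read transcripts only. Acetylation of peroxiredoxin proteins, the known effect of HDAC6 on them, was not measured.

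Because NRF2 acts through the antioxidant response element, the RefSeq promoter windows (GRCm38.p6, 250 bases before to 50 after a start) of the listed genes were searched for its core TGACNNNGC on both strands, where N is any base. Windows of 8 of the 10 genes were used, without Prdx6 and Hmox1. The core stood once each in a window of Prdx1, Txnrd1 and Gclm, that is in 3 of their 10 windows, against 12.4% of all 32851 windows. No core stood in the window of Prdx2, which like Prdx1 encodes an HDAC6 substrate, nor in those of Prdx3, Prdx4, Prdx5 and Txn1. The 3 windows that hold the core are shown. Capitals mark the core, which lies on the reverse strand in all 3.
Prdx1 promoter, chr4:116685349-116685648, plus strand: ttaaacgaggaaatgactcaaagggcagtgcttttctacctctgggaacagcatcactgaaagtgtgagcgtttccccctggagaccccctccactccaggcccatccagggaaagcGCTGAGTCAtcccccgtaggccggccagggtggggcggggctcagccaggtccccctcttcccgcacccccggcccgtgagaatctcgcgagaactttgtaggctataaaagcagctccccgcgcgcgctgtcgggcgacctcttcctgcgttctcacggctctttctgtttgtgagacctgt
Txnrd1 promoter, chr10:82858956-82859255, plus strand: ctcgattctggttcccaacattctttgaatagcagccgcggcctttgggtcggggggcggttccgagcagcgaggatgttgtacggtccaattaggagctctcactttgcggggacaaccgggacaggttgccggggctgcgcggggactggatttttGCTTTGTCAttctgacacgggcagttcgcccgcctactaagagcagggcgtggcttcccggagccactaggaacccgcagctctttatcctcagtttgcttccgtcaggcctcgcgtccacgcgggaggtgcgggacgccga
Gclm promoter, chr3:122245307-122245606, plus strand: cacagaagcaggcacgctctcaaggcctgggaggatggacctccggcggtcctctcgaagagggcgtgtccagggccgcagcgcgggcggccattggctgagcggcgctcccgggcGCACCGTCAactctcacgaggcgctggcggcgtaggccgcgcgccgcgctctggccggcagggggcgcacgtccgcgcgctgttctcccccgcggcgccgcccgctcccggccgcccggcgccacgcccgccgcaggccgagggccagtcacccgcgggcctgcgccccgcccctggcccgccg
The match began 133 bases before the start in Prdx1, 92 in Txnrd1 and 134 in Gclm. In Prdx1 it overlaps the AP-1 motif TGAGTCA, and in the other two it does not. Txnrd1 has 3 windows, of which the one shown holds the match, and which start the Treg use was not measured. A match is a match of letters and not a binding site, and a window without one says nothing about the factor.

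Across the 13 probe sets, 0 passed the threshold, against 0.194% of all probe sets (44 of 22626). No transcript of the 7 genes with a probe set of their own was therefore called higher or lower in the knockout Treg. Prdx1, Prdx5 and Prdx6 are not among these genes. Of the 13, 6 were higher and 7 lower in the knockout (50.4% of all probe sets were lower), and 2 had an unadjusted p under 0.05, against 10.6% of all probe sets. The genotypes did not overlap for 2 of the 13, against 17.2% of all probe sets, and both were lower in the knockout, against 9.48%. By each gene's brightest probe set (the one with the highest mean over the 6 arrays), the 7 differences ranged in size from 0.08 to 0.24, or 1.06-fold to 1.18-fold. Each taken alone, the 95% intervals of these 7 differences lay between -0.37 and 0.45, that is between 1.30-fold lower and 1.36-fold higher. The median of the 7 was 0.09, against 0.00 over all 12393 genes.

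**Figure D1:**
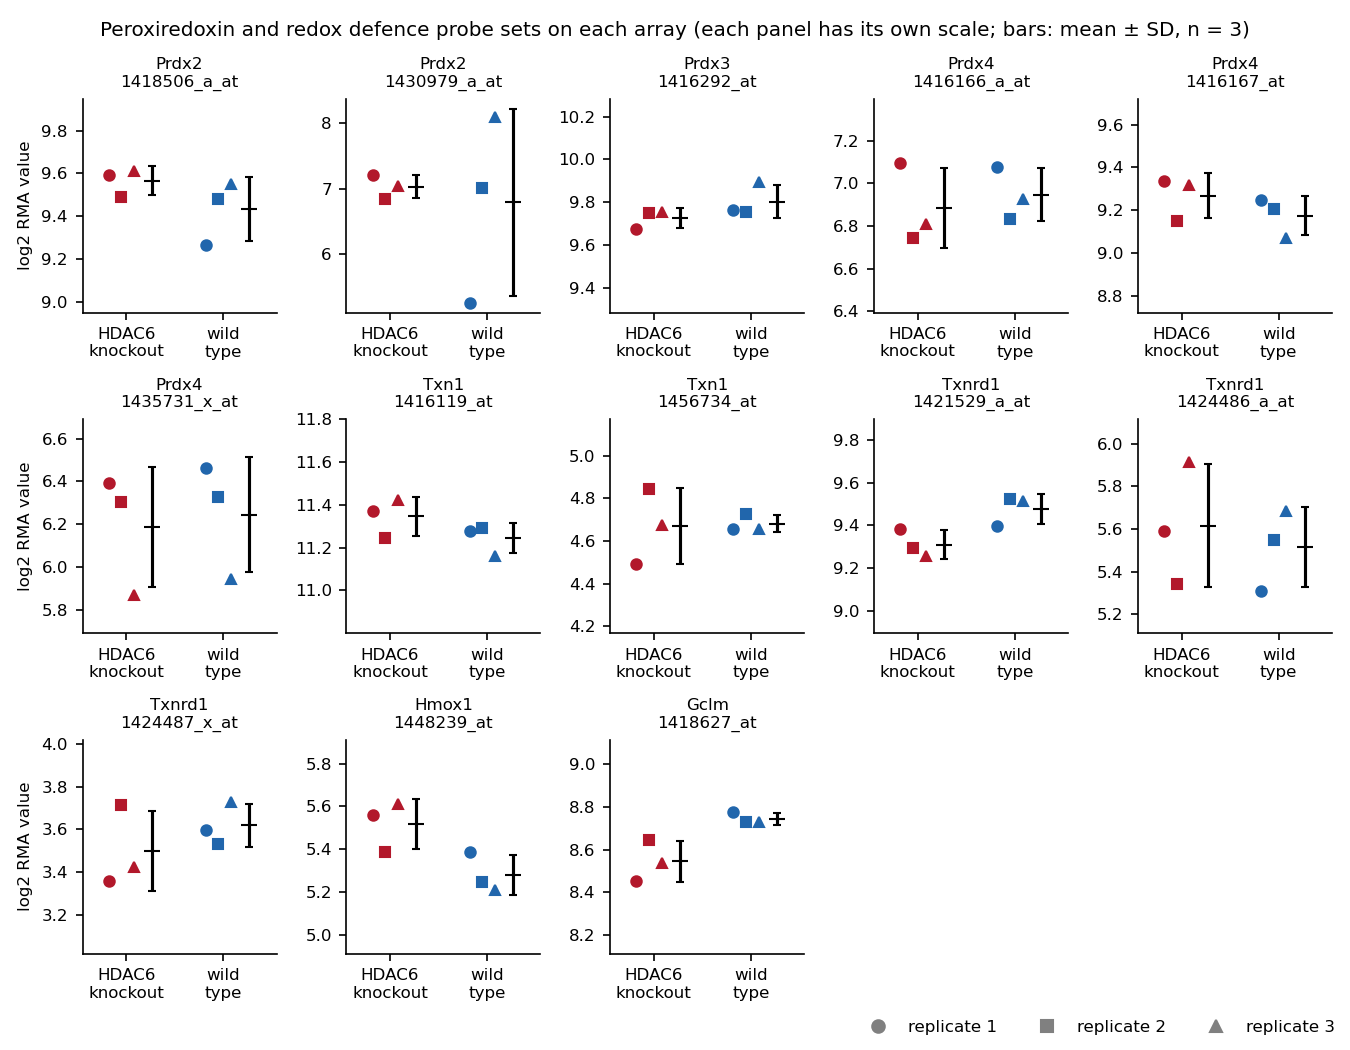
Log2 RMA values (vertical axis, own scale per panel) of the 13 probe sets on each array, with HDAC6 knockout arrays left in red and wild-type arrays right in blue, the marker shape giving the replicate number and the bar the mean ± SD (n = 3). The groups separate for the Gclm probe set and for Txnrd1 1421529_a_at, both lower in the knockout, and the wild-type arrays spread from 5.25 to 8.10 for Prdx2 1430979_a_at.

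Among the peroxiredoxins, Prdx2, the cytosolic form that is abundant in red cells and lymphocytes, was measured by 2 probe sets. The brighter, 1418506_a_at, read 9.59, 9.49 and 9.61 in the knockout arrays, against 9.26, 9.48 and 9.55 in the wild-type arrays. The groups overlapped, with wild-type replicate 1 below the rest, and the difference was 0.13 (SE 0.09, 95% interval -0.09 to 0.35, adjusted p = 0.667). Without wild-type replicate 1 it was 0.05. The second probe set, 1430979_a_at, read 7.21, 6.85 and 7.04 in the knockout arrays, against 5.25, 7.02 and 8.10 in wild type. The wild-type SD of 1.44 was far above the knockout SD of 0.18, and the difference of 0.24 (SE 0.63, adjusted p = 0.928) carried no sign that held, being -0.53 without wild-type replicate 1 and 0.90 without wild-type replicate 3. The wild-type arrays stood in the same order in both Prdx2 probe sets, with replicate 1 lowest and replicate 3 highest. The RefSeq table lists pseudogenes of Prdx2, and their part in either signal was not tested.

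Since Prdx2 is a major protein of red cells, markers of that lineage were read beside it. Of 6 measured red cell and erythroid precursor markers, 3 were higher and 3 lower in the knockout, by -0.14 to 0.05, and 0 passed or had an unadjusted p under 0.05. Hba-a1, an alpha globin, was the only one without overlap (3.67 in the knockout and 3.81 in wild type). Car2, a carbonic anhydrase, was the only one to average over 6 (6.78 in the knockout and 6.92 in wild type). The other 5 averaged under 6 on the log2 scale, among them Alas2, the heme synthesis enzyme of erythroid cells, at 4.42 in the knockout and 4.38 in wild type. Klf1, their defining transcription factor, averaged 4.06 in the knockout and 4.02 in wild type. The arrays' lower quartiles over all probe sets were 4.14 to 4.25. The mean log2 value of the 6 markers ranged from 4.57 to 4.74 in the knockout arrays and from 4.65 to 4.74 in the wild-type arrays, and wild-type replicates 1 to 3, which spread widely in the second Prdx2 probe set, stood at 4.65, 4.73 and 4.74.

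Prdx3, the mitochondrial peroxiredoxin, had 1 probe set, which read 9.67, 9.75 and 9.75 in the knockout arrays, against 9.76, 9.75 and 9.89 in wild type. The groups overlapped and the difference was -0.08 (SE 0.07, 95% interval -0.25 to 0.09, adjusted p = 0.757). It stayed below 0 without any 1 array, between -0.10 and -0.03.

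Prdx4, the peroxiredoxin of the endoplasmic reticulum, which passes oxidising equivalents to protein disulfide isomerases, had 3 probe sets. The brightest, 1416167_at, read 9.34, 9.15 and 9.32 in the knockout arrays, against 9.25, 9.21 and 9.07 in wild type. These overlapped, with a difference of 0.09 (SE 0.09, 95% interval -0.11 to 0.29, adjusted p = 0.755). Set 1416166_a_at differed by -0.06 (SE 0.11) and set 1435731_x_at by -0.06 (SE 0.18), and groups overlapped in all 3. The sign of the gene therefore depended on the probe set, and the mean of the 3 differed by -0.01 (SE 0.10). In set 1435731_x_at replicate 3 was the lowest array of both genotypes, at 5.87 in the knockout and 5.94 in wild type, while the other arrays read 6.30 to 6.46.

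Prdx1, the other peroxiredoxin that HDAC6 deacetylates, could be read only through 5 probe sets that also name Gm21399, a pseudogene of it, and the share of each in the signal was not tested. The brightest of them, 1434731_x_at, read 12.20, 12.11 and 11.95 in the knockout arrays, against 12.23, 12.18 and 12.00 in wild type. Set 1416000_a_at, the only one of the 5 without the suffix x, which marks probes that can match several transcripts, read 11.45, 11.39 and 11.47 in the knockout arrays, against 11.44, 11.39 and 11.30 in wild type. Both sets overlapped between genotypes. Differences over the 5 ranged from -0.09 to 0.06, with 4 below 0 and 1 above, and their 95% intervals lay between -0.30 and 0.23. The lowest adjusted p was 0.779.

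**Figure D2:**
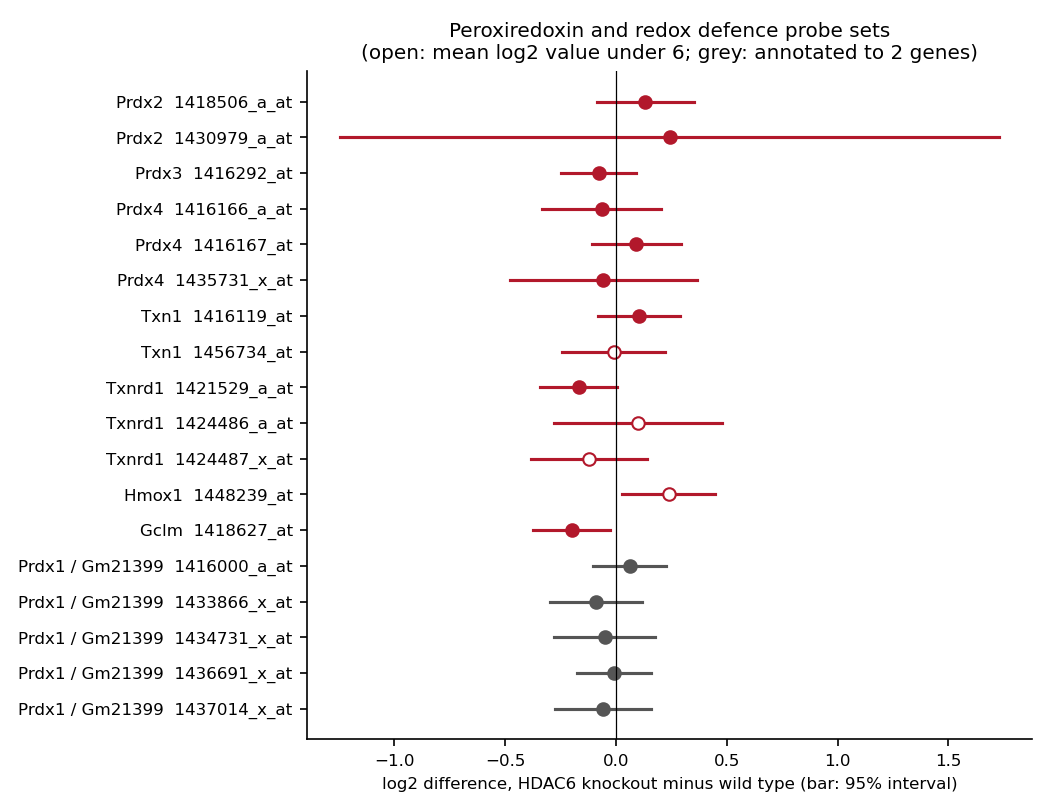
Log2 differences, HDAC6 knockout minus wild type (horizontal axis), of the 13 probe sets of the redox defence genes in red and of the 5 probe sets shared by Prdx1 and Gm21399 in grey, with 95% intervals as bars and open points for a mean log2 value under 6. All but the Hmox1 and Gclm intervals include 0, and the Prdx2 1430979_a_at interval is the widest, from -1.24 to 1.73.

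In the thioredoxin arm, Txn1 and its reductase differed in opposite directions by small amounts, neither past the threshold. The brighter Txn1 probe set, 1416119_at, read 11.37, 11.25 and 11.42 in the knockout arrays, against 11.28, 11.29 and 11.16 in wild type. These overlapped, with a difference of 0.10 (SE 0.08, 95% interval -0.08 to 0.29, adjusted p = 0.696). The second, 1456734_at, was dim at 4.67 in the knockout and 4.68 in wild type and differed by -0.01 (SE 0.10).

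Txnrd1 was represented by 3 probe sets, of which the brightest, 1421529_a_at, separated the genotypes. It read 9.38, 9.29 and 9.25 in the knockout arrays, against 9.40, 9.52 and 9.52 in wild type. Knockout replicate 1 lay only just below wild-type replicate 1, and the difference of -0.17 (SE 0.07, 95% interval -0.34 to 0.01, adjusted p = 0.484) did not pass. The other Txnrd1 sets were dim and overlapped. Set 1424486_a_at read 5.59, 5.34 and 5.91 in the knockout arrays, against 5.31, 5.55 and 5.68 in wild type, and differed by 0.10 (SE 0.16). Set 1424487_x_at averaged 3.50 in the knockout and 3.62 in wild type, below the arrays' lower quartiles, and differed by -0.12 (SE 0.11).

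Of the stress-induced enzymes, Gclm was lower and Hmox1 higher in the knockout, and neither passed. The Gclm probe set, 1418627_at, read 8.45, 8.64 and 8.54 in the knockout arrays, against 8.78, 8.73 and 8.73 in wild type. Every knockout array lay below every wild-type array, and the difference was -0.20 (SE 0.07, 95% interval -0.37 to -0.02, unadjusted p = 0.0308, adjusted p = 0.403), or 1.15-fold lower. Over the 6 fits that leave out 1 array it ranged from -0.25 to -0.15. Hmox1, set 1448239_at, read 5.56, 5.39 and 5.61 in the knockout arrays, against 5.39, 5.25 and 5.21 in wild type. The lowest knockout array equalled the highest wild-type array to 2 decimals, and the difference was 0.24 (SE 0.09, 95% interval 0.03 to 0.45, unadjusted p = 0.0307, adjusted p = 0.403), or 1.18-fold higher. Leaving out 1 array it ranged from 0.19 to 0.30. Its means of 5.52 in the knockout and 5.28 in wild type were under 6, and RMA compresses differences of dim probe sets. Gclm and Hmox1 are both NRF2 targets and differed in opposite directions.

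Because Hmox1 is strong in macrophages that clear red cells, macrophage and monocyte markers were set beside it. Of 13 measured, 5 were higher and 8 lower in the knockout, 12 averaged under 6 on the log2 scale, and 0 passed (3 had an unadjusted p under 0.05, against 11.2% of all genes). These 3, Cd163, Mrc1 and Cd14, were all dim and lower in the knockout without overlap, against 10.3% of all genes lower without overlap. Spic and Cd163, markers of red pulp macrophages, averaged 3.98 and 3.09 in the knockout, against 4.13 and 3.34 in wild type. Vcam1 and Adgre1, also on the list, differed by -0.03 and -0.004. Lyz2, the only one to average over 6, read 6.75, 6.45 and 7.07 in the knockout arrays, against 6.89, 7.92 and 6.79 in wild type. Of the 5 higher ones, C1qa differed most, by 0.15. The mean log2 value of the 13 ranged from 4.56 to 4.64 in the knockout arrays and from 4.60 to 4.78 in the wild-type arrays.

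Hdac6 and the identity of the cells were checked in the same fit. The only Hdac6 probe set read 7.54, 7.86 and 7.64 in the knockout arrays, against 8.54, 8.23 and 8.42 in wild type, or -0.71 (SE 0.11, adjusted p = 0.0875). Its position against the deletion is not stated in the labels, so this signal does not check them. The 8 Treg and T cell markers were all measured, with mean log2 values of 10.21 to 10.28 in the knockout arrays and 10.12 to 10.22 in wild type, and 0 passed. Foxp3 averaged 10.32 ± 0.12 in the knockout and 10.26 ± 0.06 in wild type (SD, n = 3 each). Of 8 measured plasma cell markers, 8 were higher in the knockout (49.3% of all genes were lower). Igha alone passed (difference 1.81, adjusted p = 0.00799), against 0.169% of all genes. An unadjusted p under 0.05 was reached by 6 of the 8, against 11.2% of all genes. The genotypes did not overlap for 6, all higher in the knockout, against 18.6% of all genes in either direction. The mean log2 value of the 8 was 9.77, 9.47 and 9.99 in the knockout arrays, against 8.87, 9.11 and 9.06 in wild type. Knockout replicate 2, the lowest knockout array there, was also the lowest of them for the brightest Prdx2, Prdx4 and Txn1 probe sets and for Hmox1, and the highest for Gclm, while it lay between the other two for Prdx3 and for the brightest Txnrd1 probe set. Among the wild-type arrays, replicate 1 was the lowest for the plasma cell mean and for the brightest Prdx2 and Txnrd1 probe sets. It was the highest for the brightest Prdx4 probe set, for Hmox1 and for Gclm. For Prdx3 and the brighter Txn1 probe set it lay between the other wild-type arrays. The part of plasma cell RNA in these values was not tested. Of 7 measured B cell markers 4 were higher, by 0.10 to 0.17, and 3 lower, and 0 passed (1 had an unadjusted p under 0.05). The lower ones were Ms4a1, which encodes CD20, at 7.40, 8.11 and 7.96 in the knockout arrays, against 9.04, 9.44 and 8.38 in wild type (difference -1.13, SE 0.29, adjusted p = 0.236, no overlap), Blk at -0.63 (SE 0.44) and Cd79b at -0.32 (SE 0.15). The mean log2 value of the 7 ranged from 6.98 to 7.54 in the knockout arrays and from 7.29 to 7.67 in the wild-type arrays. The part of B cell RNA in the redox values was not tested. Platelet markers were higher for 4 and lower for 1 of 5, and 0 passed (1 had an unadjusted p under 0.05).

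Beyond the 10 genes, 10 lists of the surrounding redox pathways were read, each gene by its brightest probe set. Of 93 measured genes that are not among the 10, 44 were higher and 49 lower in the knockout, with a median of -0.01 against 0.00 over all genes, and 0 passed, against 0.169% of all genes. An unadjusted p under 0.05 was reached by 17 of the 93, against 11.2% of all genes. The genotypes did not overlap for 29 (31.2%), against 18.6% of all genes. All differences named in the next paragraphs missed the threshold unless a setting is given.

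**Figure D3:**
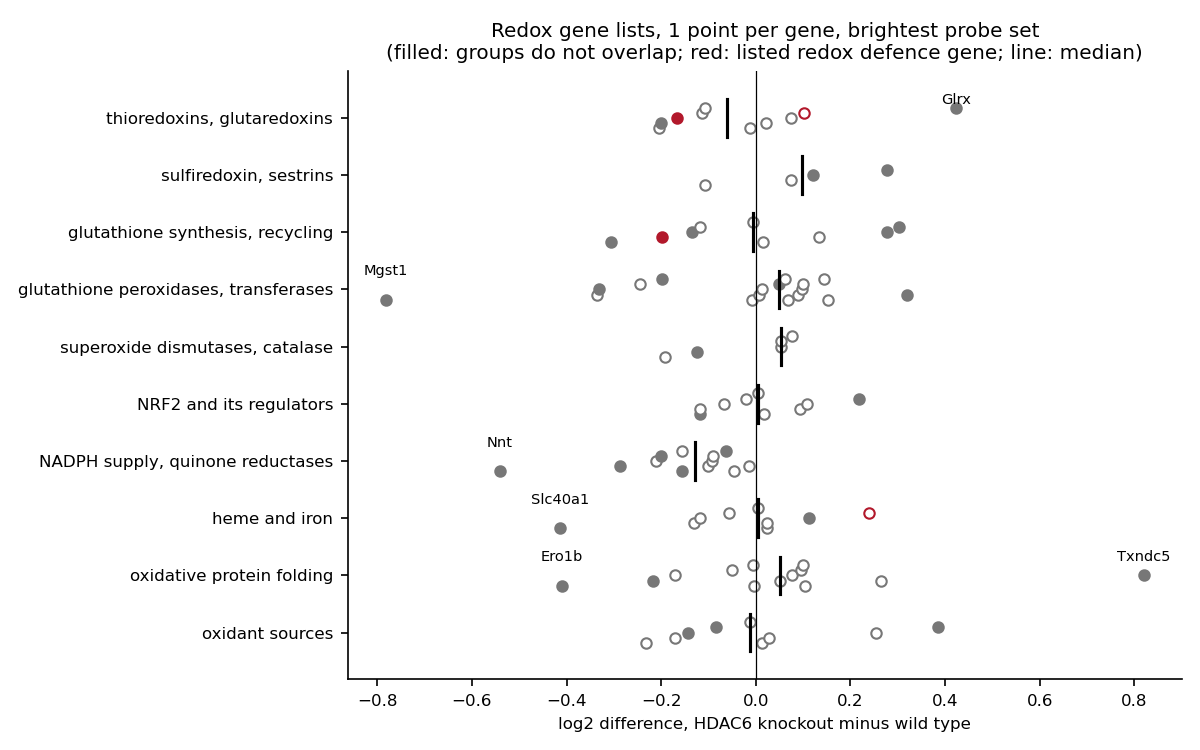
Log2 differences, HDAC6 knockout minus wild type (horizontal axis), of each measured gene of the 10 redox lists (rows), by its brightest probe set, with black lines at list medians. All 12 points of the NADPH supply list lie below 0, and Txndc5 at 0.82 and Mgst1 at -0.78 lie farthest out.

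NADPH, the reductant that thioredoxin reductase and glutathione reductase both use, is made by several enzymes. These are pentose phosphate pathway dehydrogenases, NADP-linked malic enzymes and isocitrate dehydrogenases, and the mitochondrial transhydrogenase Nnt. The NADPH supply list is wider than these producers. It also holds Tkt, Taldo1, Pgls and Nadk, the NAD-linked Me2, and the quinone reductases Nqo1 and Nqo2. All 12 measured genes of the list were lower in the knockout, against 49.3% of all genes. The differences of the 12 ranged from -0.54 to -0.01 with a median of -0.13. Among the producers, Nnt differed by -0.54, Pgd and Idh2 by -0.16 each, Me1 by -0.05 and Idh1 by -0.01. Only Nnt and Idh2 of these did not overlap between genotypes. Nqo1, Nqo2 and Me1 were dim, with mean log2 values under 6. G6pdx, also on the list, was not measured. Of the 12, 5 were lower without overlap between genotypes, against 10.3% of all genes, and 0 passed (limma, with 3 of 12 at an unadjusted p under 0.05, against 11.2% of all genes). The mean log2 value of the 12 genes was 7.85, 7.86 and 7.82 in the knockout arrays, against 8.02, 8.06 and 7.94 in wild type, so every knockout array lay below every wild-type array. With quantile normalization 11 of 12 were lower, and without knockout replicate 2 or wild-type replicate 2 it was 10. With each gene given by the mean of its probe sets, 10 were lower and 2 higher.

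Nnt, which couples the proton gradient to the reduction of NADP in mitochondria and is known to be deleted in part in the C57BL/6J substrain, had the lowest p of the NADPH list. Its brighter probe set, 1416105_at, read 7.90, 8.05 and 7.83 in the knockout arrays, against 8.46, 8.49 and 8.46 in wild type. The second, 1456573_x_at, read 7.55, 7.57 and 7.24 in the knockout arrays, against 8.26, 8.08 and 8.05 in wild type. The genotypes did not overlap in either. The brighter set differed by -0.54 (SE 0.08, adjusted p = 0.0730) and the other by -0.68 (SE 0.11, adjusted p = 0.0950). The brighter set passed with trend and robust settings (adjusted p = 0.0191) and over probe sets with a mean log2 value of at least 6 (adjusted p = 0.0423), and its adjusted p ranged up to 0.232 with an unmoderated test. The labels name C57BL6 for the wild type only and give no substrain, and the positions of these probe sets against that deletion were not looked up.

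Me2, a mitochondrial malic enzyme that mainly uses NAD, differed by -0.29 (SE 0.09, adjusted p = 0.314). It was lower in every knockout array, at 8.10, 8.09 and 7.93, against 8.44, 8.32 and 8.22 in wild type. Its second probe set, 1426573_at, differed by -0.26 (SE 0.19) and overlapped. Tkt, the transketolase of the pentose phosphate pathway, differed by -0.20 (SE 0.07, adjusted p = 0.367) in its brighter probe set and by -0.01 (SE 0.06) in the other, 1451015_at.

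**Figure D4:**
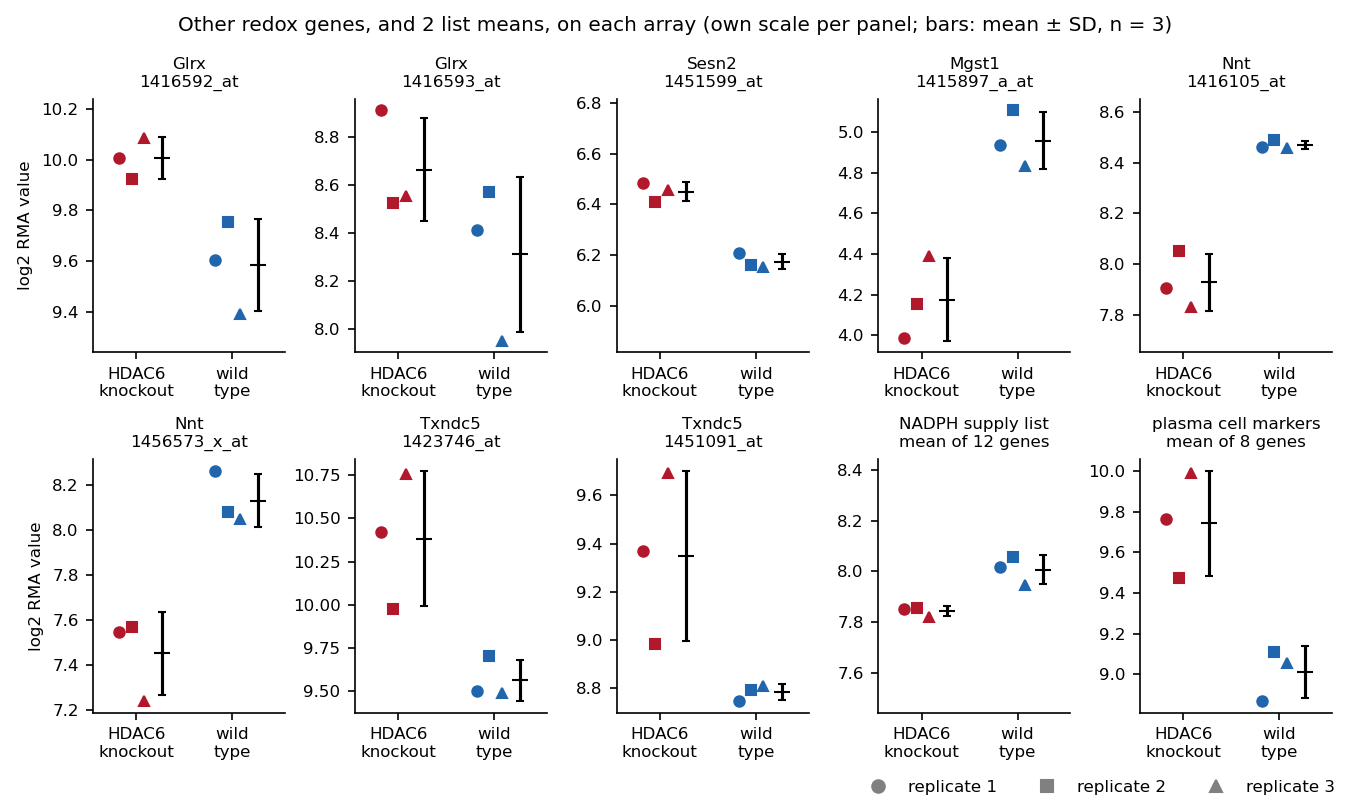
Log2 RMA values (vertical axis, own scale per panel) of Glrx, Sesn2, Mgst1, Nnt and Txndc5 probe sets and of the means of the NADPH supply list and of the plasma cell markers on each array, with HDAC6 knockout left in red, wild type right in blue and bars at mean ± SD (n = 3). Both Nnt probe sets and the NADPH mean are lower in every knockout array, and Txndc5 and the plasma cell mean are higher, with knockout replicate 2 the lowest of the knockout arrays in both.

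Among 10 measured thioredoxin and glutaredoxin genes, 4 were higher and 6 lower in the knockout, with a median of -0.06. Glrx, the cytosolic glutaredoxin that removes glutathione from protein cysteines, read 10.01, 9.92 and 10.09 in the knockout arrays, against 9.61, 9.75 and 9.39 in wild type. The groups did not overlap, and the difference was 0.42 (SE 0.11, adjusted p = 0.223). Its second probe set, 1416593_at, differed by 0.35 (SE 0.18) and overlapped. Txnip, which binds and inhibits thioredoxin, differed by -0.20 (SE 0.10) without overlap, and Txnrd3, a testis-enriched thioredoxin reductase, by -0.20 (SE 0.12).

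The sestrins, stress-induced proteins of nutrient and redox control, were measured with sulfiredoxin Srxn1, which repairs over-oxidised peroxiredoxins. Of these 4 genes, 3 were higher and 1 lower. Sesn2 read 6.48, 6.41 and 6.46 in the knockout arrays, against 6.21, 6.16 and 6.15 in wild type. The groups did not overlap, and Sesn2 differed by 0.28 (SE 0.06, adjusted p = 0.188). Sesn3 differed by 0.12 (SE 0.06), also without overlap, and Sesn1 by -0.11 (SE 0.08). Srxn1, an NRF2 target, was dim at 5.58 in the knockout and 5.51 in wild type.

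Of 9 measured glutathione synthesis and recycling genes, 4 were higher and 5 lower, with a median of -0.01. Of the 9, 5 did not overlap, 2 of them higher and 3 lower in the knockout, against 18.6% of all genes. Gclc, the catalytic partner of Gclm, averaged 8.49 in the knockout and 8.60 in wild type, the same direction as Gclm (difference -0.12, SE 0.10). Slc3a2, the heavy chain of the cystine and amino acid transporters, differed by 0.28 (SE 0.10, adjusted p = 0.367). Chac1 and Chac2, which cleave glutathione, differed by 0.30 (SE 0.10) and -0.31 (SE 0.11), both from means under 6.

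Among 17 glutathione peroxidases and transferases 11 were higher and 6 lower, with a median of 0.05. Mgst1, a microsomal glutathione transferase, read 3.99, 4.15 and 4.39 in the knockout arrays, against 4.94, 5.11 and 4.83 in wild type. The groups did not overlap, and the difference of -0.78 (SE 0.12, adjusted p = 0.0849) lay at dim values. It passed with trend and robust settings (adjusted p = 0.0424) and with array weights (adjusted p = 0.0488), and its adjusted p ranged up to 0.317 over the settings tried. A second Mgst1 probe set, 1415898_at, differed by -0.05 (SE 0.12). It averaged 3.09 in the knockout and 3.13 in wild type, below the arrays' lower quartiles. Mgst3 differed by -0.33 (SE 0.08) and Gstt1 by 0.32 (SE 0.12), both without overlap. Gstt1 was dim, at 4.92 in the knockout and 4.60 in wild type.

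Superoxide dismutases and catalase gave 3 higher and 2 lower of 5, with catalase (Cat) at -0.19 (SE 0.10), the copper chaperone Ccs at -0.13 (SE 0.07) and mitochondrial Sod2 at 0.05 (SE 0.07). NRF2 and its regulators gave 5 higher and 4 lower of 9. Nfe2l2, which encodes NRF2, averaged 8.77 in the knockout and 8.66 in wild type (difference 0.11, SE 0.09), and its inhibitor Keap1 averaged 8.90 in both groups. The small Maf partners Mafg and Mafk differed by 0.22 (SE 0.11) and -0.12 (SE 0.07), and the repressor Bach1, which competes with NRF2 at Hmox1, by -0.12 (SE 0.07). Of these, Mafg and Bach1 did not overlap between genotypes.

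Heme and iron genes, the setting of Hmox1, gave 5 higher and 4 lower of 9. The iron exporter Slc40a1 differed by -0.41 (SE 0.15) between dim means of 3.42 in the knockout and 3.84 in wild type. Its other probe set, 1448566_at, differed by 0.06, between 3.35 in the knockout and 3.29 in wild type. Both sets averaged below the arrays' lower quartiles. The ferritin heavy chain Fth1 differed by -0.13 (SE 0.08) and the transferrin receptor Tfrc by 0.11 (SE 0.07). Hmox2, the constitutive heme oxygenase, averaged 9.17 in the knockout and 9.14 in wild type.

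Oxidative protein folding genes, the partners of Prdx4 in the endoplasmic reticulum, gave 7 higher and 6 lower of 13. Txndc5, a disulfide isomerase abundant in plasma cells, read 10.42, 9.97 and 10.76 in the knockout arrays, against 9.50, 9.70 and 9.49 in wild type. It differed by 0.82 (SE 0.19, adjusted p = 0.187). Its second probe set, 1451091_at, differed by 0.57 (SE 0.17), and neither set overlapped. The knockout arrays stood in the same order for Txndc5 as for the plasma cell marker mean. Of the wild-type arrays, replicate 2 was the highest for that mean and for the brighter Txndc5 set. The lowest was replicate 1 for the mean and replicate 3 for that set. The part of plasma cell RNA in the Txndc5 difference was not tested. Ero1b differed by -0.41 (SE 0.10, adjusted p = 0.197), and Ero1a, like it an oxidase that drives disulfide formation, by -0.22 (SE 0.07, adjusted p = 0.344), both lower in every knockout array, although a dimmer Ero1b probe set, 1425705_a_at, differed by 0.52 (SE 0.24).

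Oxidant sources gave 4 higher and 5 lower of 9. Xdh, xanthine dehydrogenase, differed by 0.39 (SE 0.13, adjusted p = 0.349) without overlap. The phagocyte oxidase subunits Ncf4 and Ncf1 differed by -0.14 (SE 0.09) and -0.23 (SE 0.15), of which Ncf4 did not overlap. Ncf1 was dim, at 5.72 in the knockout and 5.95 in wild type. Its dimmer probe set, 1425609_at, differed in the other direction, by 0.15 (SE 0.18).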

How the data were processed

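Per the submitters' processing notes the authors made the deposited values with RMA, and the log2 scale was inferred from their range. The version and array definition are not given in the sources used here. The table held 22690 probe sets for 6 arrays with 0 missing values and array medians of 6.22 to 6.27. The 64 control probe sets were left out, and no further normalization was applied. The number of arrays limits the precision, and the median standard error was 0.10 over the 22626 probe sets tested. Of these, 20380 carried 1 gene symbol, 691 several and 1555 none. Symbols were updated through gene IDs in the RefSeq table (GRCm38.p6), which held 20351 of them, giving 12393 genes.

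Limma 3.58.1 in R 4.3.3 (lmFit, eBayes, genotype as the only term) compared the genotypes, two-sided, and was tested on simulated data. The genes and lists were chosen with earlier results of these data known, and no list was tested. Named genes of a list were the 3 with the smallest p outside the 10. Srxn1, Gclc, Nfe2l2, Keap1 and Hmox2 fall outside that rule and were named, after their values were seen, for their roles beside the 10. Deviations of same-numbered arrays correlated at 0.22, -0.09 and 0.10, so the numbers were not taken as pairs. Alternatives were a replicate block, other scalings, eBayes settings and array weights, a dim filter, another threshold and leaving out each array. Plots used matplotlib 3.10.9 (Python 3.11.15).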

Additional observations from a re-analysis of the deposited data

How the results depend on the processing

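The count of 0 passing probe sets for the redox defence genes held under a replicate block, quantile normalization, median centring, trend and robust settings, array weights, a minimum mean of 6, an unmoderated test, a threshold of 0.1 and the loss of any 1 array. An unadjusted p under 0.05 was reached by 2 of the 13 with the settings of the report, by 3 once knockout replicate 2 was left out, and by 0 in the fits that left out knockout replicate 3, or replicate 2 or 3 of the wild type. The lowest adjusted p of any of the 13 was 0.235, for Gclm over probe sets with a mean of at least 6. Over all probe sets the count of 44 was 27 with a replicate block (adjusted p = 0.381 for Hmox1), 147 with trend and robust settings, 86 with array weights, 121 at a threshold of 0.1, 0 with an unmoderated test (2239 at an unadjusted p under 0.05), and 5 (without knockout replicate 2) to 51 (without wild-type replicate 3) without 1 array. Nothing in the labels says that the numbers pair arrays, and of the knockout arrays only replicate 1 correlated best with its own number.

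Of 185 alternative values of the 13 probe sets 11 turned sign and the other 174 kept sign and call. Txn1 1456734_at turned to 0.041 with array weights and ranged from -0.097 to 0.079 without 1 array. The same ranges were -0.17 to 0.0058 for Prdx4 1416166_a_at, -0.21 to 0.10 for Prdx4 1435731_x_at, -0.049 to 0.24 for Txnrd1 1424486_a_at and -0.53 to 0.90 for Prdx2 1430979_a_at. Prdx4 turned to -0.0094 as the mean of its probe sets. The cause was not tested. In the NADPH supply list 2 genes were higher by the mean of probe sets, against 0 by the brightest. The fits for the 30 named genes of other lists, and the NADPH and plasma cell counts under scalings and without 1 array, were added after the data were seen. Of 414 such values for the 30 genes 6 newly passed, all for Nnt or Mgst1, including both at a threshold of 0.1. Plasma cell markers were higher in 8 of 8 under each of these.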
